A study of Mus musculus with 2 samples.

Results

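NRF2 is the transcription factor encoded by Nfe2l2, and the signals examined here are those of Nfe2l2, of Keap1 and of 8 genes that NRF2 is known to induce outside the glutathione transferases, Nqo1, Hmox1, Slc7a11, Gclc, Gclm, Gsr, Txnrd1 and Srxn1. They were chosen by name, and every probeset (a set of short probes that reads 1 transcript) annotated to one of these 10 genes was taken, which gave 10 of the 18193 genes and 21 of the 45101 probesets on the array. No probeset among the 21 named a further gene. After a filter on low signals 18 of the 21 remained, and these read 8 of the 10 genes. Hmox1 and Slc7a11 had no probeset above the filter.

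Male C57BL/6J mice, an inbred strain, were 4 months old and received a high-fat diet with 20% fat by weight for 4 weeks. The fat of the EPA&DHA diet came to 44% from a concentrate of EPA and DHA, the long-chain n-3 fatty acids of marine oils, with 6% EPA and 51% DHA in the concentrate, and otherwise from flax-seed oil. Mice on the control diet took all of their fat from flax-seed oil, whose main n-3 fatty acid is ALA. RNA of the small intestine from 11 of 12 mice on EPA&DHA and from 10 of 12 mice on the control diet was combined into 1 pool per diet, and 1 Affymetrix mouse array was run for each. Nothing in these data thus measures how far mice on a diet differ, and the comparisons below carry no error bar and no statistical test. The study's methods describe scraped epithelium and the sample labels the complete small intestine. All 10 measured absorptive enterocyte markers had signals of 19753 or more on EPA&DHA and of 22386 or more on the control diet. The 4 measured smooth muscle markers had a summed signal of 1040 on EPA&DHA and 1211 on control. Which material was pooled is not settled by these signals.

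NRF2 is made all the time and is normally destroyed. KEAP1 holds it on an E3 ubiquitin ligase built on CUL3, and electrophiles, among them products of lipid peroxidation, modify cysteines of KEAP1 and so let NRF2 accumulate. It then pairs with a small MAF protein and binds antioxidant response elements near genes that make glutathione, reduce thioredoxin and detoxify quinones and heme. Because control lies mainly in the stability of the protein, the signal of Nfe2l2 is no measure of NRF2 activity, and protein was not measured here.

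The short letters that define such an element were searched in promoter sequences from RefSeq (build GRCm38.p6). The table held promoters for 7 of the 10 genes, 9 windows in all because Txnrd1 had 3. Promoters of Gclc, Hmox1 and Gsr were not analysed here. The searched letters were TGACNNNGC and TGAGNNNGC on both strands of the 250 bases before the start site, and 5 of the 9 windows held either one, against 23% of all 32851 windows of the same length. Counted separately, TGACNNNGC was found in 3 of the 9 windows and 10.2% of all windows. TGAGNNNGC was found in 2 of the 9 and 14.4% of all, and a window could hold both. A match is a description of letters and not of binding. Those that bear on the values below are printed from 5′ to 3′ in the direction of the gene, with matches in capitals, and a match on the other strand appears as its reverse complement. The promoters of Nqo1, Gclm and Srxn1 are shown because these genes stood at different places in the range of log2 ratios. For Gclm the start site of the window lies inside the annotated gene, so the print stops before the first annotated base. Single matches of Nfe2l2 and Txnrd1 are shown with their flanks. Only 1 of the 3 Txnrd1 windows held a match. That window lies inside the annotated gene, which starts at base 82833951 of chromosome 10, and the window at this start held none.
Nqo1, chr8:107403206-107403455, minus strand: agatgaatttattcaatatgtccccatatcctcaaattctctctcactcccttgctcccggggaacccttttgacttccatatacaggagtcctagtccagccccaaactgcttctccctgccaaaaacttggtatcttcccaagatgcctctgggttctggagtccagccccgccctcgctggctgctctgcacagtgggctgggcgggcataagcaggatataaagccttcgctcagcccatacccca
Gclm, chr3:122245307-122245486, plus strand: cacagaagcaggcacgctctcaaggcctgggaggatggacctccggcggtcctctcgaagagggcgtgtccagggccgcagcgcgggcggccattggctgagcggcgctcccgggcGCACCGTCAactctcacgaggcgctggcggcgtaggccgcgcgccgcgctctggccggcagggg
Srxn1, chr2:152105274-152105523, plus strand: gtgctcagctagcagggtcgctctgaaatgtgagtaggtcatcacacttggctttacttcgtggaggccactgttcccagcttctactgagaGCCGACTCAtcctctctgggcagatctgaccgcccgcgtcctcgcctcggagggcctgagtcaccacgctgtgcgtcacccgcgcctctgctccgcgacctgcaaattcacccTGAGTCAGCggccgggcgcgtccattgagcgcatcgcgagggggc
Nfe2l2, chr2:75704885-75704913, minus strand: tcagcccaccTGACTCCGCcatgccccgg
Txnrd1, chr10:82859104-82859132, plus strand: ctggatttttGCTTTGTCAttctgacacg
The Srxn1 promoter held 2 matches, TGAGTCAGC at 45 bases and TGAGTCGGC, on the other strand, at 158 bases before the start. Gclm held 1, TGACGGTGC on the other strand, and Nfe2l2 held TGACTCCGC at 240 bases. The window of Nqo1 held none, which says only that these letters are absent from this stretch.

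Among the 8 measured genes Gclc and Nqo1 passed 1.5-fold, both higher on EPA&DHA, and none was lower by 1.5-fold on its brightest kept probeset. A gene is given the value of its brightest kept probeset, and 2 of 8 genes were at least 1.5-fold higher against 6.2% of all 11706 genes measured in this way. At least 1.5-fold lower were 0 of 8, against 7.93% of all genes. At 2-fold the counts were 0 higher, against 1.57% of all genes, and 0 lower, against 2.24%. The median log2 ratio of EPA&DHA over control was 0.17 for the 8 genes and -0.05 for all genes, and 5 of the 8 had a ratio above 0, against 43.6% of all genes. These figures describe 1 pair of pools. In bulk RNA, more cells of a type and more RNA per cell cannot be told apart.

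**Figure D1:**
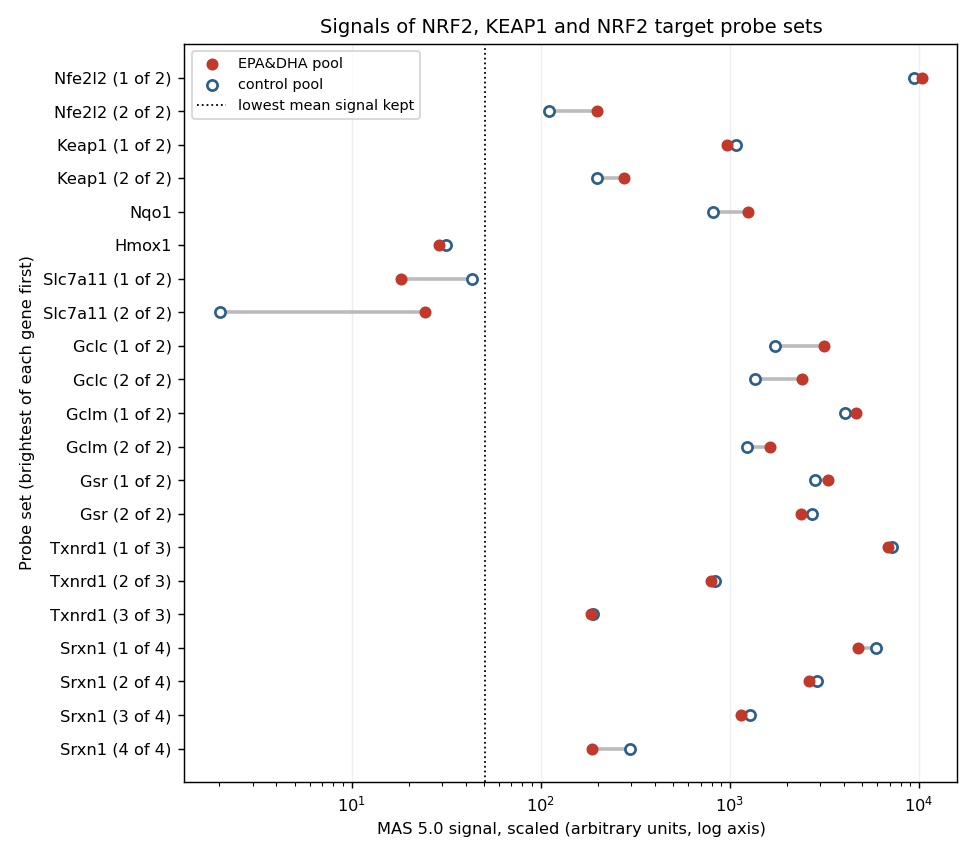
Scaled MAS 5.0 signal (x axis, log scale) of all 21 probesets of the 10 genes (rows), in the EPA&DHA pool (filled red circles) and the control pool (open blue circles), with the lowest mean signal kept as a dotted line at 50.8. Both Gclc probesets and Nqo1 lie to the right in the EPA&DHA pool, the 3 Txnrd1 probesets nearly coincide, and the probesets of Hmox1 and Slc7a11 lie left of the line.

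Glutathione is made in 2 steps, the first and limiting one by glutamate-cysteine ligase, whose catalytic subunit is encoded by Gclc and whose modifier subunit by Gclm. The brightest Gclc probeset had a signal of 3148 on EPA&DHA and 1723 on the control diet. This was 1.83-fold higher, a log2 ratio of 0.87. The other Gclc probeset, whose suffix marks that it may bind more than 1 transcript, had signals of 2401 on EPA&DHA and 1366 on control, 1.76-fold higher. The probesets thus stood 0.06 apart on the log2 scale, whereas the median range between kept probesets of a gene was 0.31 over the 3056 genes that had 2. These genes covered all signal levels and were not matched to the brightness of Gclc. Of all genes, 97.4% had a lower log2 ratio than Gclc.
How wide the ratios of equally bright probesets scattered on this pair of arrays was described by a local SD, the robust SD of the log2 ratios of the 500 kept probesets nearest in mean signal. It is not an error between replicates, and it includes any difference between the pools. For the brighter Gclc probeset the local SD was 0.24, and its log2 ratio lay 3.74 local SDs above the local median. The other lay 3.32 local SDs above. When all kept probesets were split by mean signal into 4 bands of equal size, both lay in the brightest band, of which 4.11% were 1.5-fold or more above control and 1.76% as far below it.

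Gclm was closer to 1. Its brightest probeset had a signal of 4671 on EPA&DHA and 4058 on control, 1.15-fold higher, and its other one had 1639 on EPA&DHA and 1235 on control, 1.33-fold higher. These log2 ratios of 0.20 and 0.41 lay 1.06 and 1.92 local SDs above their local medians, and both were above 0. The subunits were not set against each other by a test, which these arrays do not allow.
Slc7a11 encodes the light chain of the transporter that brings in cystine, from which the cysteine of glutathione comes. Both of its probesets were under the filter and they disagreed. The first had signals of 18.2 on EPA&DHA and 43.1 on control, and the second 24.4 on EPA&DHA and 2.00 on control. As all 4 signals were under 50.8, the lowest mean signal kept, no ratio is read from them. Slc3a2, which encodes the heavy chain of the same transporter and of others, had a log2 ratio of -0.09 on a bright probeset, with signals of 9705 on EPA&DHA and 10348 on control. Slc3a2 lies within the list of partner genes below and was picked for its role after its values had been seen. The other step, in which Gss joins glycine to the dipeptide, was picked in the same way. Gss was at 0.07 on its brightest probeset and at 0.31 on its other.

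Nqo1 encodes a quinone reductase and is among the genes most often used to read NRF2 activity. Its only probeset had a signal of 1242 on EPA&DHA and 815 on control, 1.52-fold higher, which is just past 1.5-fold. The log2 ratio was 0.61, 2.57 local SDs above the local median, with a local SD of 0.25, and 94.2% of all genes had a lower ratio. It lay in the next brightest band, of which 5.08% were at least 1.5-fold higher. With an offset of 50 added to each signal the log2 ratio was 0.58 and Nqo1 no longer passed 1.5-fold.
Hmox1 encodes heme oxygenase 1, which opens the heme ring. Its only probeset had signals of 28.8 on EPA&DHA and 31.7 on control, both under the lowest mean signal kept, so its level was not measured well enough for a ratio. Hmox1 is high in macrophages that take up red cells. Of 9 macrophage markers 8 were measured, and 0 of the 8 were 1.5-fold apart on the brightest probeset, against 14.1% of all genes. The median log2 ratio was -0.11. C1qb, the highest of them, was at 0.44 on its brightest probeset, and its 3 kept probesets ran from -0.51 to 0.63. The lowest was C1qa at -0.50, and C1qc stood at -0.31. The summed signal was 6030 on EPA&DHA and 5852 on control, of which Lyz2 gave 2981 on EPA&DHA and 2622 on control. The defining scavenger receptor Cd163 was under the filter, at 7.31 on EPA&DHA and 24.0 on control.

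The reductases that return oxidized glutathione, thioredoxin and peroxiredoxins to their working forms did not share the higher signals of Gclc and Nqo1. Gsr encodes glutathione reductase, and its probesets went in opposite directions. The brighter had a signal of 3317 on EPA&DHA and 2812 on control, 1.18-fold higher, and the other 2376 on EPA&DHA and 2726 on control, 1.15-fold lower. The annotation names the same cDNA record for both, so the gap of 0.44 between their log2 ratios arose within 1 transcript record, and it was wider than either distance from 0.
Txnrd1, the cytosolic thioredoxin reductase, was nearly equal in the pools on all 3 probesets. Signals of the brightest were 6821 on EPA&DHA and 7231 on control, 1.06-fold lower. The others had log2 ratios of -0.08 and -0.04, and the 3 values spanned 0.05 in all. The suffixes of these probesets mark that they may read several transcripts of the gene or related sequence.
Srxn1 encodes sulfiredoxin, which restores peroxiredoxins that were overoxidized. It had the most probesets, and all 4 had log2 ratios below 0. The brightest had a signal of 4745 on EPA&DHA and 5900 on control, 1.24-fold lower. The next had 2617 on EPA&DHA and 2894 on control, and the third 1146 on EPA&DHA and 1281 on control, log2 ratios of -0.14 and -0.16, and the annotation again names a single cDNA record for this pair. The dimmest had 187 on EPA&DHA and 295 on control, 1.58-fold lower, but its local SD was 0.39 and it lay within 2 local SDs of the local median.

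**Figure D2:**
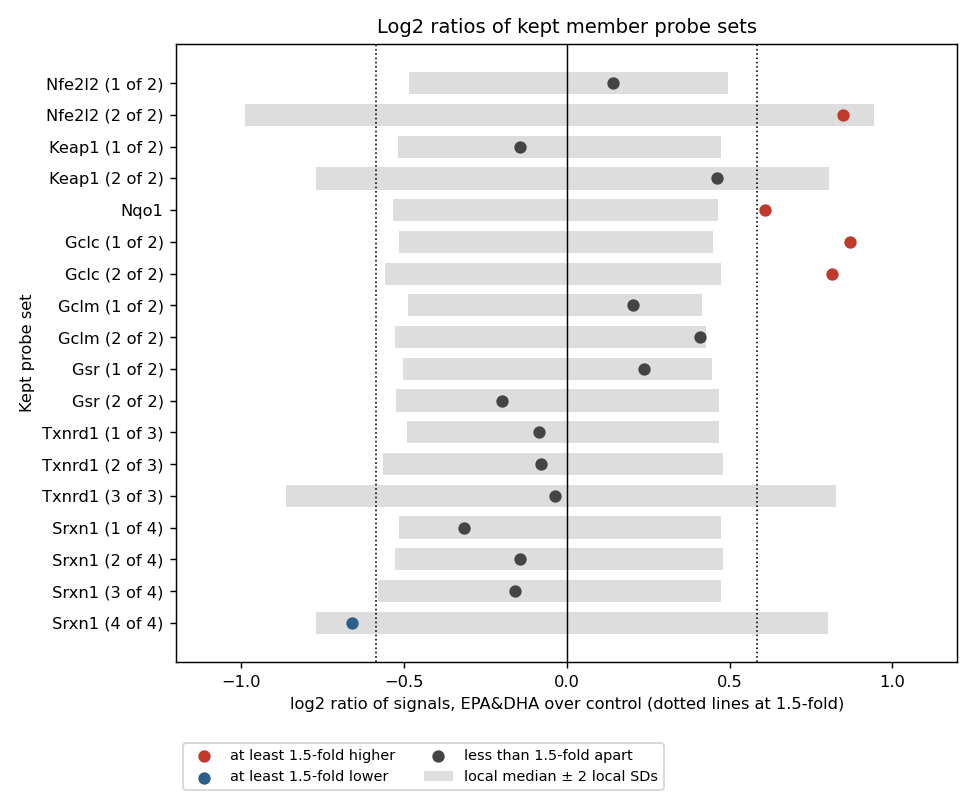
Log2 ratio of EPA&DHA over control (x axis) for the 18 kept probesets (rows, points), with grey bars from 2 local SDs below to 2 local SDs above the local median and dotted lines at 1.5-fold. The points of Nqo1 and of both Gclc probesets lie right of their bars, and all others lie within theirs.

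Nfe2l2 and Keap1, the factor and its inhibitor, were close to 1 on their bright probesets. For Nfe2l2 the brightest probeset had a signal of 10417 on EPA&DHA and 9445 on control, 1.10-fold higher, a log2 ratio of 0.14 with a local SD of 0.25. The other was far dimmer, with 198 on EPA&DHA and 109.9 on control. It was 1.80-fold higher, but the local SD at this signal was 0.48 and the ratio lay 1.80 local SDs above the local median. The brightest Keap1 probeset read 970 on EPA&DHA and 1071 on control and was 1.10-fold lower. On its dim one it was 1.38-fold higher, with 275 on EPA&DHA and 199 on control and a local SD of 0.39. For both genes the ratio was thus larger on the dim probeset, where equally bright probesets scattered more widely. With averaging over the kept probesets the log2 ratio was 0.50 for Nfe2l2 and 0.16 for Keap1, so that Keap1 changed sign.

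Counted over probesets, 4 of the 18 kept were at least 1.5-fold higher, against 8.08% of all 24320 kept probesets, and 1 was at least 1.5-fold lower, against 8.87%. The 4 were both of Gclc, that of Nqo1 and the dim one of Nfe2l2, and the 1 was the dimmest of Srxn1. Probesets of 1 gene read the same RNA and are not independent. By signal, 11 of the 18 lay in the brightest band, 3 and 4 in the next and 0 in the dimmest. The share of all probesets at least 1.5-fold apart in either direction was 5.87% in the brightest band and 34.9% in the dimmest, so the background for bright genes such as Gclc is lower than the share over the whole array.

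**Figure D3:**
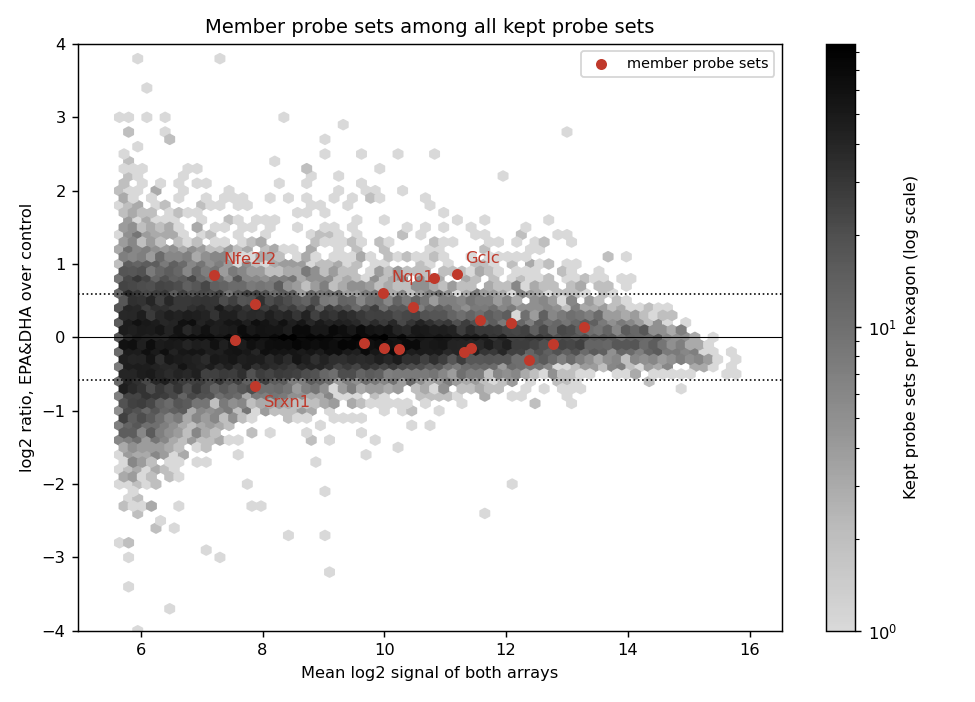
Log2 ratio of EPA&DHA over control (y axis) against the mean log2 signal of both arrays (x axis) for all 24320 kept probesets (grey hexagons, darker where more lie) and the 18 probesets of the NRF2 genes (red), with dotted lines at 1.5-fold. Both Gclc probesets lie above most of the cloud at high signal, while Nfe2l2 and Srxn1 are past the lines only at low signal where the cloud is wide.

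Other genes known to be induced by NRF2 were also mixed, and those past 1.5-fold on their brightest kept probeset were higher. Of 27 listed, 21 were measured. At least 1.5-fold higher were 5 of the 21, against 6.2% of all genes, and 0 were at least 1.5-fold lower, against 7.93%. At least 2-fold higher were 3, against 1.57% of all genes. The median log2 ratio was 0.15, with 12 of 21 above 0, against 43.6% of all genes.
Akr1b8, an aldo-keto reductase for reactive aldehydes, had a signal of 3388 on EPA&DHA and 946 on control, 3.58-fold higher with a local SD of 0.26. Ephx1, the microsomal epoxide hydrolase, had 3049 on EPA&DHA and 1251 on control, 2.44-fold higher. Each had only 1 probeset. Me1, the malic enzyme that makes NADPH, had 8896 on EPA&DHA and 4046 on control, 2.20-fold higher, and its other probeset had a log2 ratio of 1.25. Cbr3, a carbonyl reductase, had 610 on EPA&DHA and 320 on control, 1.91-fold higher, with a local SD of 0.34. Aldh1a1, which oxidizes retinal and other aldehydes, had 23125 on EPA&DHA and 13081 on control, 1.77-fold higher.
Members of this list answer to other receptors as well. Me1 is a known PPARα target, and Ephx1 is a known target of the receptor CAR. Me1 is also named by the study, as Mod1, from these same arrays, so its direction here is not independent evidence. The study also reports it as higher on EPA&DHA by quantitative PCR of pooled RNA. At the other end of the list was Fth1, the heavy chain of ferritin, which stood at -0.43 and, on its dimmer probeset, at -0.04. Gpx2, the gastrointestinal glutathione peroxidase and often listed as an NRF2 target, stood at -0.40, with 13706 on EPA&DHA and 18041 on control. Gpx2 was picked after its value had been seen, and so was Txn1, the thioredoxin gene. Txn1 was at -0.06 on its brightest probeset but at -0.89 on its other, which is past 1.5-fold on the lower side.

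**Figure D4:**
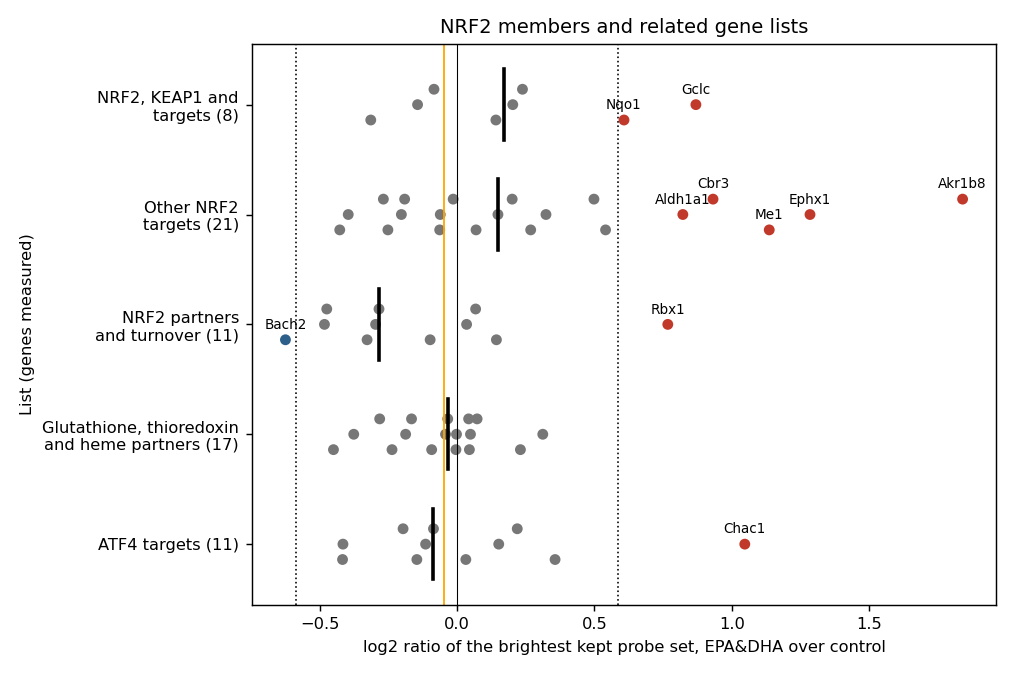
Log2 ratio of EPA&DHA over control (x axis) of each measured gene (points; red at least 1.5-fold higher, blue at least 1.5-fold lower) in 5 lists (rows, with the number of genes measured), with list medians as black bars, the median of all genes as an orange line at -0.05 and dotted lines at 1.5-fold. The 5 labelled genes of the other NRF2 targets lie right of the upper line, up to Akr1b8 at 1.84, and the list of partners and turnover has the lowest median, -0.28.

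Signals of genes whose proteins destroy, compete with or pair with NRF2 had a low median. The list also held Sqstm1 and the NRF2 relatives Nfe2l1 and Nfe2l3, so its median joins unlike roles. Of 12 listed 11 were measured, with 1 at least 1.5-fold higher against 6.2% of all genes, 1 at least 1.5-fold lower against 7.93%, and 7 of 11 below 0. The median log2 ratio was -0.28, against -0.05 for all genes. The higher one was Rbx1, the RING subunit of the KEAP1 ligase, on a dim probeset with signals of 74.4 on EPA&DHA and 43.7 on control and a local SD of 0.78, and Rbx1 did not pass 1.5-fold with an offset of 50, at 0.41, or of the 25th percentile of signals, at 0.58. The lower one was Bach2, a repressor of the same DNA elements best known from B cells, with 404 on EPA&DHA and 623 on control, 1.54-fold lower. Its 3 kept probesets ran from -0.63 to -0.18, and Bach2 did not pass 1.5-fold with averaged probesets, at -0.39, with suffixed probesets left out, at -0.37, or with an offset of 50, at -0.57. Among B and plasma cell markers, 3 of 6 measured were also at least 1.5-fold lower, against 7.93% of all genes. At least 1.5-fold higher was 1, against 6.2%. The 3 lower ones were the B cell markers Cd79a at -0.71, Cd79b at -0.65 and Ms4a1 at -0.75. The other Ms4a1 probeset stood at -0.11. Of the plasma cell markers, Tnfrsf17 was at 1.23 on a dim probeset, Jchain at 0.37 and Mzb1 at -0.03. The summed signal of all 6 was 15889 on EPA&DHA and 12839 on control, most of it from Jchain. The part of these markers in the Bach2 value was not tested.
Bach1, the broadly expressed repressor of Hmox1, was picked after its values had been seen. It had a signal of 5658 on EPA&DHA and 7909 on control, a log2 ratio of -0.48 with a local SD of 0.24, and its other probeset stood at -0.43. The small MAF partners were also below 0 on their brightest probesets, at -0.30 for Maff, -0.33 for Mafg and -0.28 for Mafk, again picked after the fact, and the other Mafg probeset stood at 0.34. Cul3, the scaffold of the ligase, was at 0.07 on its brightest probeset and ran down to -0.55 on the others. The 6 kept probesets of Gsk3b, also of this list, ran from -0.10 on the brightest to -0.76, past 1.5-fold on the lower side. The 2 of Btrc stood at 0.14 on the brightest and -0.51 on the other.

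Enzymes that work beside the NRF2 targets in glutathione, thioredoxin and heme metabolism had no gene past 1.5-fold on its brightest kept probeset. Of 20 listed, 17 were measured. Past 1.5-fold were 0 on the higher side, against 6.2% of all genes, and 0 on the lower side, against 7.93%. The median log2 ratio was -0.03. They ran from Gpx3, the secreted glutathione peroxidase, at -0.45 to Oplah, which recycles 5-oxoproline of the glutathione cycle, at 0.31. Other kept probesets of a gene could lie farther out. The peroxiredoxin gene Prdx4 was at 0.00 on its brightest but reached 1.78 on another of its 3, and Txnrd3, a further thioredoxin reductase, reached -0.64. With averaged probesets Prdx4 stood at 0.79 and was the 1 gene of the list past 1.5-fold.
Slc7a11 is controlled by ATF4, the factor of the amino acid response, as well as by NRF2. Of 11 genes of this response, all measured, 1 was at least 1.5-fold higher on its brightest probeset, against 6.2% of all genes. At least 1.5-fold lower were 0, against 7.93%, and the median was -0.09. The higher one was Chac1, which breaks down glutathione, with a signal of 113 on EPA&DHA and 54.6 on control, 2.07-fold higher but with a local SD of 0.59. The lowest on its brightest probeset was Ddit3, a stress-induced transcription factor, at -0.42, although its other probeset stood at 0.67. Phgdh, at 0.15 on its brightest, reached -0.69 on another of its 4.

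Signals of cell type markers and of RNA integrity probesets were compared as well, again with 1 array per diet. Of the exocrine pancreas markers, 9 of 9 measured passed 1.5-fold on the higher side, against 6.2% of all genes. Their summed signal was 16545 on EPA&DHA and 5969 on control. The 10 measured enterocyte markers all had log2 ratios below 0, with a median of -0.17 and the lowest at -0.38. Goblet cell markers, 5 of 5 below 0, had a median of -0.31. Among all 11706 genes, 6603 were below 0. These enterocyte and goblet cell values came from the brightest band of signals, whose median log2 ratio was -0.04. A trend of the ratios with signal at the top of that band was not tested. No enterocyte or goblet cell marker was 1.5-fold apart on its brightest probeset, against 14.1% of all genes. Other kept probesets stood at 1.37 for Agr2, -0.93 for Clca1 and 0.74 for Slc5a1. The ratio of 3′ to 5′ signal, a measure of intact RNA, was 0.793 on EPA&DHA and 0.932 on control for Gapdh, and 1.16 on EPA&DHA and 1.22 on control for Actb. The part of these markers and ratios in the values of the NRF2 genes was not tested.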

How the data were processed

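RNA pooled per diet was hybridized by the authors to 1 Affymetrix MOE430_2 array per pool and summarized with MAS 5.0 (no version stated). The deposited values are MAS 5.0 signals per probeset on a linear scale, which the authors scaled per array. The 64 control probesets were set aside. Gene names came from the annotation of the array platform, updated through gene identifiers to a RefSeq gene table. Of 45037 probesets, 34945 named 1 gene, 932 several and 9160 none.

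Both arrays were scaled to the same 2% trimmed mean, and log2 ratios of EPA&DHA over control were taken without an offset. Probesets were ranked by mean log2 signal and the top 54% kept (24320), after the share that the methods give as expressed. Detection calls were not used. Each gene was represented by its brightest kept probeset naming no other gene. Genes were counted past 1.5-fold and 2-fold. The number of arrays, 2, limits the precision. All 10 genes were named, and of each related list every gene at least 1.5-fold apart and otherwise the highest and the lowest. The genes and lists were chosen from general knowledge with earlier results of these data known. Cell type lists also covered T cells, smooth muscle, Paneth, enteroendocrine and erythroid cells. On brightest kept probesets T cells had 1 of 4 measured markers at least 1.5-fold higher and 1 lower. The others had 0, with no erythroid marker above the filter. Among all genes 6.2% were higher and 7.93% lower. Another probeset of the Paneth cell marker Lyz1 reached -1.49. Alternatives were other scalings (none, median, quantile, loess with span 0.3), offsets of 50 or 18.3 (the 25th percentile of signals), other filters and other ways to pick a probeset. The calculation was tested on simulated data with planted ratios. Software was numpy 2.4.6 and pandas 2.3.3 under Python 3.11.15, statsmodels 0.14.6 for loess, and matplotlib 3.10.9 for plots.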

Additional observations from a re-analysis of the deposited data

How the results depend on the processing

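With an offset of 50, 1 of the 8 measured NRF2 genes was at least 1.5-fold higher, in place of 2, because Nqo1 moved under the threshold (3.53% of all genes were higher in this setting), and 0 probesets were at least 1.5-fold lower, in place of 1. Without the filter on low signals 1 of 10 genes was at least 1.5-fold lower, in place of 0. So were 2 of 21 probesets, in place of 1, against 10402 of all 45037. In this setting 19.5% of all genes were lower and 14.5% higher. The 1 lower gene was Slc7a11, on a dim probeset whose partner went the other way. Over all 11 settings the log2 ratio of Gclc ran from 0.84 to 0.91, that of Nqo1 from 0.58 to 0.64 and that of Srxn1 from -0.33 to -0.14. The median of the measured NRF2 genes ran from 0.03, without the filter, to 0.23, with averaged probesets.

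Of the partners and turnover list, 0 genes in place of 1 were at least 1.5-fold higher with either offset or when both arrays had to reach the lowest mean signal kept. The count of its lower genes was 0 in place of 1 with an offset of 50, with averaged probesets and with suffixed probesets left out, and 2 without the filter. Without the filter 2 of the other NRF2 targets were lower, in place of 0. With averaged probesets 1, Prdx4, of the glutathione, thioredoxin and heme partners was higher, in place of 0. No paired analysis was possible because each diet had 1 array. Signals near or under 50.8 limit Hmox1 and Slc7a11.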
